A study of Mus musculus with 6 samples.

Results

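Glutamate and GABA receptor subunits were followed in cultured mouse neural stem cells (NSCs) with and without miR-151. They were taken by gene symbol from the table of counts: the AMPA, kainate, delta and NMDA subunits and the metabotropic receptors of glutamate, and the GABA-A and GABA-B subunits. This gave 45 of 32493 genes, of which 4 were AMPA, 5 kainate, 2 delta, 7 NMDA, 7 metabotropic glutamate, 18 GABA-A and 2 GABA-B genes. No measured value entered the rule of this choice, but the choice was made with earlier results of these data known. The study compared NSCs of miR-151 cko embryos with those of ctrl embryos. Both genotypes were on the C57BL/6J background and carried floxed alleles of miR-151, which lies in an intron of Ptk2. The cko embryos also carried Emx1-IRES-Cre, which drives Cre in the dorsal telencephalon, while the ctrl embryos, named wild type in the labels, had no Cre. Cells were dissected from the lateral ventricles at E14.5 and grown for 3 generations before RNA-seq, so the dissected cells need not all have been of the Cre-expressing lineage. The labels and the study's methods name different media and RNA kits.

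Glutamate opens AMPA, kainate and NMDA receptors, which are tetrameric cation channels, and also acts through metabotropic receptors coupled to G proteins. GABA opens the pentameric GABA-A chloride channels, usually built of alpha and beta subunits with a gamma or delta subunit, and acts through the GABA-B receptor, an obligate heterodimer of Gabbr1 and Gabbr2. Both transmitters act on neural progenitors before synapses form, and oligodendrocyte precursors and astrocytes carry many of the same receptors.

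Counts were compared between 3 cko and 2 ctrl libraries with totals of 17883796 to 23335736 counts, since the column of ctrl replicate 2 is the rounded-up mean of ctrl libraries 1 and 3 in all 32493 genes. The study describes cko and ctrl littermates, but the sources do not tie each RNA-seq library to an embryo or culture of its own, so p-values measure the spread between these libraries. The deleted miRNA was not among the counted genes used here, so the deletion was not checked in these libraries. The study reported less of its mature form in cko than in ctrl NSCs by RT-qPCR. The NSC marker Nes was at 471 and 537 CPM (counts relative to the normalized library total) in ctrl and 875 to 1068 in cko libraries, the only call among 5 NSC markers (1 higher and 0 lower, median log2 fold change 0.16). Vim, Fabp7, Sox2 and Pax6 were not called, and 0 were lower in DESeq2 or at an unadjusted p under 0.05 in edgeR. The 5 NSC markers summed to 4983 to 6156 CPM in ctrl and 7040 to 7501 in cko libraries. Of 12 oligodendrocyte lineage markers, 2 were higher and 8 lower in cko (median log2 fold change −1.82), and of 8 astrocyte markers, 5 were lower and 0 higher (median −1.09), with 0 higher also in DESeq2 and at an unadjusted p under 0.05 in edgeR. The summed astrocyte markers were at 3899 to 4703 CPM in ctrl and 1802 to 2711 in cko libraries, and the oligodendrocyte markers at 3918 to 4593 and 3582 to 3725. Of 7 tested neuronal markers, Syt1 and Elavl4 were higher and Dcx lower. The 8 listed markers summed to 1133 to 1262 CPM in ctrl and 1274 to 1305 in cko libraries. Map2, not called, made up most of that sum, at 1032 and 959 CPM in ctrl and 1084, 1090 and 1124 in cko libraries. Stmn2, too low to test, had 4 and 48 counts in ctrl libraries 1 and 3 and 1, 4 and 2 in cko libraries. The 8 interneuron markers summed to 24.7 to 38.3 CPM in ctrl and 42.7 to 49.7 in cko libraries, with Gad1 higher among 4 tested. Gad1 made up most of that sum, at 21.8 and 32.2 CPM in ctrl and 46.1, 38.9 and 45.3 in cko libraries. Gad2, Dlx1 and Dlx2 were not called, at log2 fold changes of 0.67, −1.02 and −1.18. Of these, Dlx2 had an unadjusted p under 0.05 in edgeR. Markers of cortical excitatory neurons (6 genes, at most 2.99 CPM in sum), microglia (5 genes, at most 0.480) and endothelial or mural cells (5 genes, 6.55 to 8.73) were low. No gene of these 3 lists was called in edgeR or DESeq2, and 1 (Col1a1, lower) had an unadjusted p under 0.05 in edgeR. Xist, expressed from the inactive X chromosome, was at 2889 and 2557 CPM in ctrl and 787 to 894 in cko libraries, and the Y-linked gene Kdm5d was at 25.1 and 27.0 against 67.6 to 69.2, so the sex makeup of the cultures moved with genotype. The part of these shifts in the receptor values was not tested.

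Of the 45 receptor genes, 34 had enough counts to be tested, and 11 did not. In edgeR's quasi-likelihood test with Benjamini-Hochberg adjustment over all 16710 tested genes, 6 of the 34 passed an adjusted p of 0.05 and rose in cko NSCs (among them Gabra2, Grik1, Grin3a, Gria4 and Grm4), which is 17.6% against 7.86% of all tested genes. Another 2 fell (Gabbr1 and Grin2b), which is 5.88% against 8.57%. The other 26 were not called. The median log2 fold change of the 34 was 0.10, with 20 values above 0, beside a median of −0.0026 over all tested genes. When a call needed an unadjusted p under 0.01 together with a log2 fold change over 0.9 in size, Gabra2 and Grik1 were called higher and Grin2b lower, among 2.39% and 4.17% of all tested genes. In bulk RNA, fewer cells of a type and less RNA per cell cannot be told apart.

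**Figure D1:**
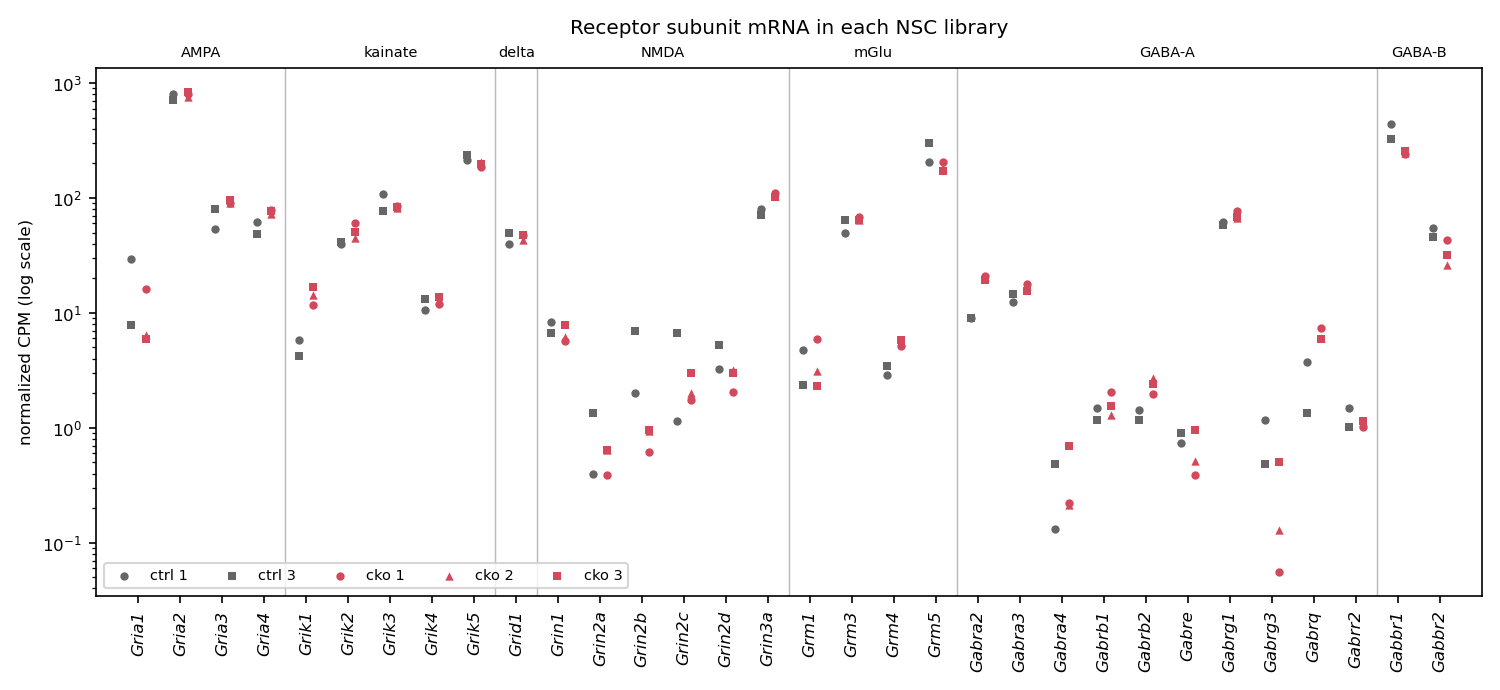
Normalized CPM (log axis) of 32 tested receptor genes in the 2 ctrl (grey) and 3 cko (red) libraries, grouped by receptor family. Gria2 is the highest point column, and the cko points of Gabra2 and Grik1 lie wholly above their ctrl points.

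**Figure D2:**
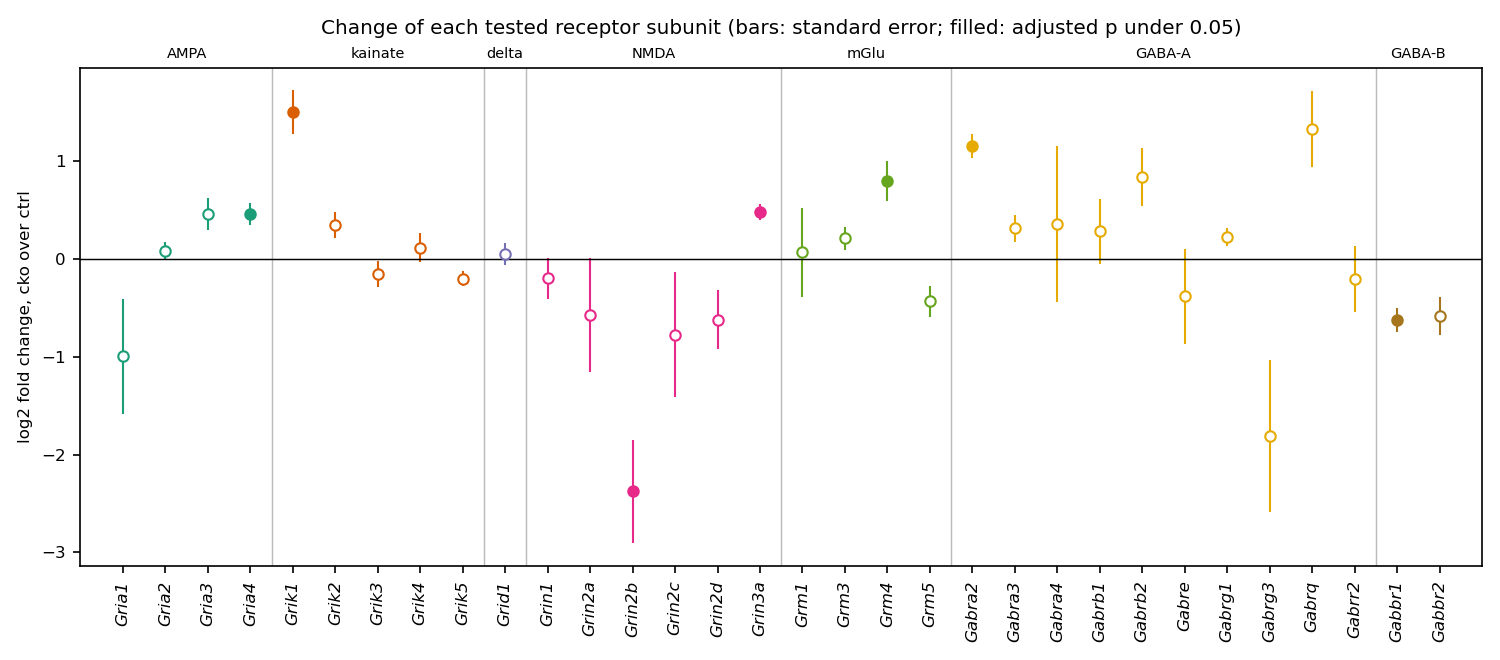
Log2 fold change of cko over ctrl for 32 tested receptor genes, with the standard error and a filled point where the adjusted p was under 0.05. Gabra2 and Grik1 are the highest filled points, while both GABA-B subunits lie below 0.

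The GABA-A receptor had its clearest change in Gabra2, which codes for the alpha2 subunit that is common in immature neurons. Gabra2 (ENSMUSG00000000560, GRCm38 chromosome 5, 70957597 to 71095849, minus strand) was at 9.09 and 9.07 CPM in ctrl libraries 1 and 3 and at 20.9, 20.7 and 19.3 CPM in cko libraries 1, 2 and 3. The genotypes did not overlap, and the ctrl values differed by less than those of any other tested receptor gene. The fold change was 2.23 (log2 fold change 1.16 ± 0.12, SE; adjusted p = 0.00221), and Gabra2 was called in each of 12 alternatives, with log2 fold changes of 1.13 to 1.19 and adjusted p up to 0.0229.

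A promoter entry of RefSeq (GRCm38.p6, 250 bases before to 50 after the start) was matched to 30 of the 45 genes, among them Gabra2, Gria4 and Gabbr1 of the 8 called genes. These windows are shown because they hold the GC box GGGCGG, a common element of CpG-rich promoters, in the called genes. The box was searched as GGGCGG on both strands and is in capitals in each window, which is printed 5′ to 3′ on the strand of the gene.
Gabra2, chr5:71096037-71096066, minus strand: caggtgcccagaGGGCGGcggtggcttggc
Gabbr1, chr17:37045878-37045907, plus strand: ctcccgcgccgtGGGCGGtctagggagggg
Gabbr1, chr17:37045906-37045935, plus strand: ggccgggatccgGGGCGGctcctggggctc
Gabra2, which rose, and Gabbr1, which fell, both held the box, and the entry of Gria4, which rose, did not. Over the receptor genes, 18 of 30 entries held it (60%), against 35.9% of all 27025 promoters. The TATA box, searched as TATAAA on both strands, was in 3 of the 30 (Gabra3, Gabrb2 and Grin3b), or 10%, against 14.2% of all promoters. A match of letters is no evidence of binding.

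Of the other 10 tested GABA-A genes, edgeR called 0, while 4 had an unadjusted p under 0.05 (all higher, among them Gabrq, Gabrb2 and Gabrg1) and DESeq2 called Gabrq. Gabrg1, the gamma subunit with the highest level, was at 61.7 and 58.5 CPM in ctrl and 76.3, 66.6 and 68.3 in cko libraries. Every cko value was above both ctrl values, but the log2 fold change of 0.23 ± 0.09 (SE) was not called (adjusted p = 0.123). Gabrq, which codes for the theta subunit, had the larger difference, from 3.71 and 1.33 CPM to 7.44, 6.04 and 5.98, and a log2 fold change of 1.34 ± 0.39 that missed the threshold (adjusted p = 0.0562). The ctrl libraries differed 2.78-fold in Gabrq, which was called in 8 of 12 alternatives, among them the fits that counted the averaged ctrl column. Gabrb2, a beta subunit, had a log2 change of 0.84 (adjusted p = 0.0935), and Gabra3, an alpha subunit of immature brain, had 0.32 (adjusted p = 0.154). Gabrg3 was at 1.18 and 0.480 CPM in ctrl and 0.0560, 0.129 and 0.506 in cko libraries, so the groups overlapped and the log2 fold change of −1.81 ± 0.78 was not called (adjusted p = 0.155).

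Most GABA-A genes lie in clusters, and the members of a cluster did not share a level. On chromosome 5 (70751047 to 72149037, 1398 kb), Gabrg1, Gabra2, Gabra4 and Gabrb1 were at 7.64, 1.19, 0.050 and 0.096 CPM per kb of exons in ctrl. Gabra2 rose, while its neighbours Gabrg1, Gabra4 and Gabrb1 were not called, at log2 fold changes of 0.23 ± 0.09, 0.36 ± 0.80 and 0.29 ± 0.34 (SE). Gabra4 and Gabrb1 had at most 15 and 37 counts in a library, and a change like that of Gabra2 cannot be told from the value of Gabra4. The X cluster (72255999 to 72842602, 586.6 kb) held Gabre, Gabra3 and Gabrq, with log2 fold changes of −0.38 ± 0.48, 0.32 ± 0.135 and 1.34 ± 0.39 (SE), none called. These 3 genes and Gria3 are the receptor genes on the X chromosome, and the differing Xist levels stand beside them. A cluster of Gabrr2 and Gabrr1, the rho subunits known from the retina, lies on chromosome 4 (33062999 to 33163588, 100.6 kb), and Gabrr2 was not called, at −0.20 ± 0.34 on the log2 scale (SE; adjusted p = 0.722).

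**Figure D3:**
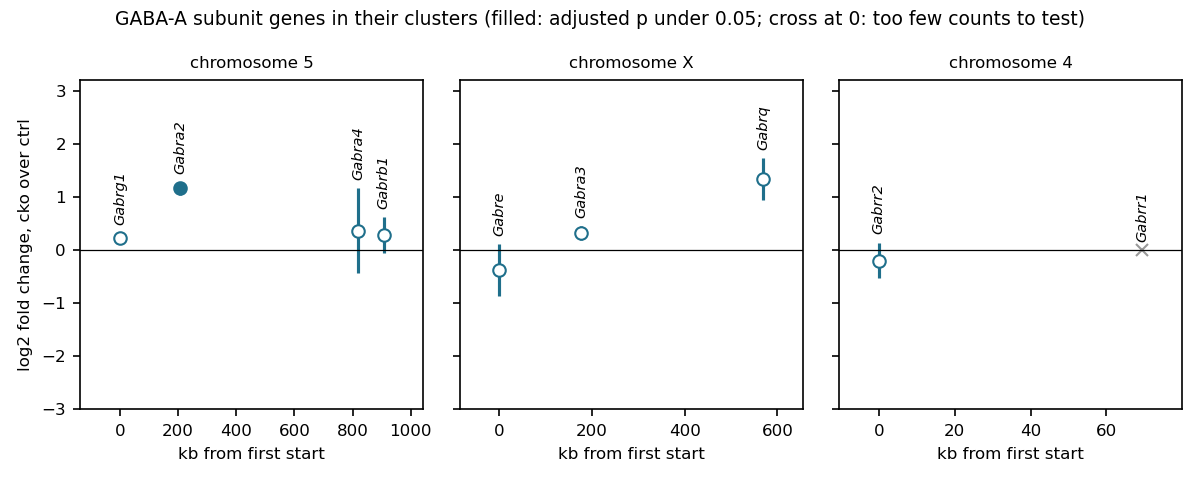
Log2 fold change (cko over ctrl, with standard error) of GABA-A genes against the distance of their start from the first start of their cluster in kb, for 3 clusters. Only Gabra2 is filled (adjusted p under 0.05), and the grey cross marks Gabrr1, which had too few counts for a value.

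The GABA-B receptor was lower in cko cells in its larger subunit transcript. Gabbr1 (ENSMUSG00000024462, chromosome 17, 37045966 to 37075067, plus strand), the GABA-binding subunit, was at 439 and 325 CPM in ctrl and 241, 249 and 257 CPM in cko libraries. Both ctrl values were above all cko values. It fell 1.53-fold (log2 fold change −0.62 ± 0.12, SE; adjusted p = 0.0175), with values of −0.81 without ctrl library 3 and −0.40 without ctrl library 1. The call was lost without cko library 1, 2 or 3 (adjusted p = 0.0604, 0.0820 and 0.0715). Gabbr2, the subunit that couples to the G protein, was at 54.4 and 45.7 against 42.8, 26.0 and 32.1 CPM, also without overlap, and its log2 fold change of −0.58 ± 0.19 was not called (adjusted p = 0.0839). Per kb of exons, Gabbr1 exceeded Gabbr2 by 6.95 and 6.12 times in ctrl and 4.86, 8.24 and 6.91 times in cko libraries, so the ratio overlapped between genotypes.

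Kainate receptors showed the largest rise of any called receptor gene. Grik1 (ENSMUSG00000022935, chromosome 16, 87895900 to 88290265, minus strand), which codes for the GluK1 subunit, was at 5.85 and 4.22 CPM in ctrl and 11.7, 14.4 and 16.9 CPM in cko libraries. All cko values were above the higher ctrl value. The fold change was 2.83 (log2 fold change 1.5 ± 0.22, SE; adjusted p = 0.00637), and Grik1 was called in each of 12 alternatives, at log2 fold changes of 1.30 to 1.76 and adjusted p up to 0.0416. Grik5, a high-affinity subunit that needs a partner such as Grik1 or Grik2 to form a channel, was at 215 and 235 against 187, 204 and 197 CPM. The groups did not overlap, and the log2 fold change of −0.20 ± 0.08 was not called (adjusted p = 0.128). Grik2, Grik3 and Grik4 were not called either, at log2 fold changes of 0.35 (adjusted p = 0.112), −0.15 (0.490) and 0.12 (0.632). Of the summed level of the family per kb of exons, Grik5 made up 72.9% ± 4.1 (SD, n = 2) in ctrl and 68.3% ± 1.6 (SD, n = 3) in cko libraries, and Grik1 1.25% ± 0.30 and 3.83% ± 0.63. Grik1 thus stayed the smaller part of the kainate transcripts.

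AMPA receptor transcripts were mainly Gria2, whose subunit makes the channel impermeable to calcium once its RNA is edited. Gria2 was at 803 and 707 CPM in ctrl and 802, 756 and 839 CPM in cko libraries. The groups overlapped, with a log2 fold change of 0.08 ± 0.09 (SE; adjusted p = 0.581). Gria4 (ENSMUSG00000025892, chromosome 9, 4417896 to 4796234, minus strand), a subunit prominent in early development, was at 61.9 and 48.2 against 78.7, 72.0 and 77.4 CPM. No cko value reached down to the ctrl values, and Gria4 rose 1.38-fold (log2 fold change 0.46 ± 0.12; adjusted p = 0.0354). That call was lost without ctrl library 3 (log2 fold change 0.30, adjusted p = 0.0521) or cko library 1, 2 or 3 (adjusted p = 0.0990, 0.0997 and 0.133). Gria3, on the X chromosome, had a like log2 fold change of 0.46 ± 0.16 and was not called (53.2 and 80.8 against 90.3, 91.0 and 95.1 CPM, adjusted p = 0.0938). Gria1 was at 29.3 and 7.79 CPM in ctrl and 16.1, 6.39 and 5.93 in cko libraries, and the 3.76-fold gap between the ctrl libraries left its log2 fold change at −0.99 ± 0.59 (adjusted p = 0.287). Gria4 made up 13.0% ± 1.0 (SD, n = 2) of the AMPA level per kb in ctrl and 16.2% ± 0.24 (SD, n = 3) in cko libraries, and Gria2 72.3% ± 0.42 and 69.1% ± 1.1.

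NMDA receptor transcripts moved in opposite directions. Grin3a (ENSMUSG00000039579, chromosome 4, 49661611 to 49845744, minus strand), which codes for a glycine-binding subunit that lowers calcium entry, was at 80.1 and 70.9 CPM in ctrl and 110, 104 and 103 CPM in cko libraries. The genotypes did not overlap, and Grin3a rose 1.40-fold (log2 fold change 0.48 ± 0.08, SE; adjusted p = 0.0108). Without cko library 2 or 3 the call was lost (adjusted p = 0.0632 and 0.0573). Grin2b (ENSMUSG00000030209, chromosome 6, 135713233 to 136173511, minus strand), the main GluN2 subunit of the embryonic forebrain, was at 2.01 and 6.94 CPM in ctrl and 0.616, 0.943 and 0.965 CPM in cko libraries. Both ctrl values were higher than any cko value, but they differed 3.45-fold from each other. It fell 5.19-fold (log2 fold change −2.38 ± 0.53; adjusted p = 0.0247). Without ctrl library 3 its log2 fold change was −1.23 and not called (adjusted p = 0.0727), and without cko library 1, 2 or 3 the adjusted p was 0.0860, 0.0927 and 0.0915.

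Grin1, which codes for the subunit that every NMDA receptor needs, was at 8.39 and 6.72 CPM in ctrl and 5.71, 6.22 and 7.86 CPM in cko libraries, with no call (log2 fold change −0.20 ± 0.21, adjusted p = 0.555). Per kb of exons, Grin3a exceeded Grin1 by 7.55 and 8.33 times in ctrl and by 15.2, 13.3 and 10.3 times in cko libraries. Every cko ratio was above both ctrl ratios. Antisense Grin1os shares 13.5% of the exon bases of Grin1, and reads of the pair cannot be told apart where strand was not used in counting. The same holds for Grin2d, which shares 9.66% of its exon bases with antisense Gm45441. Grin2a, Grin2c and Grin2d, the other GluN2 subunits, had log2 fold changes of −0.57, −0.77 and −0.62 with standard errors of 0.58, 0.64 and 0.30 and no call. The ctrl libraries differed 5.87-fold in Grin2c and 3.39-fold in Grin2a.

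The delta receptor gene Grid1 was at 40.1 and 49.1 CPM in ctrl and 47.7, 43.2 and 47.8 in cko libraries (log2 fold change 0.05 ± 0.11, SE; adjusted p = 0.778), with overlapping groups.

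Metabotropic glutamate receptors were mostly Grm5 and Grm3. Grm5, which couples to calcium release, was at 205 and 300 CPM in ctrl and 207, 184 and 172 CPM in cko libraries, which overlapped. Its log2 fold change of −0.43 ± 0.16 (SE) was not called (adjusted p = 0.108), and moved with the ctrl library left out, to −0.69 without ctrl library 1 (called, adjusted p = 0.00193) and to −0.13 without ctrl library 3 (adjusted p = 0.439). Grm3, which inhibits adenylyl cyclase, was at 49.3 and 63.9 against 68.0, 64.4 and 64.4 CPM and was not called (log2 fold change 0.21 ± 0.12, adjusted p = 0.243). Per kb of merged exons, Grm3 stood at 0.809 and 0.716 times Grm5 in ctrl and at 1.11, 1.18 and 1.26 times in cko libraries. The cko ratios were all above the ctrl ratios. With the length of the longest transcript they were 0.635 and 0.562 against 0.869, 0.926 and 0.988, so the shift between genotypes held while the order of the genes in cko cells depended on the length used. Grm4 (ENSMUSG00000063239, chromosome 17, 27422387 to 27521403, minus strand), a presynaptic receptor in neurons, was at 2.88 and 3.47 against 5.15, 5.57 and 5.79 CPM. With no overlap it rose 1.74-fold (log2 fold change 0.80 ± 0.20; adjusted p = 0.0388). The call was lost with the replicate number as a block (adjusted p = 0.11) and without ctrl library 1 or cko library 1, 2 or 3 (adjusted p = 0.0813, 0.0761, 0.144 and 0.152).

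**Figure D4:**
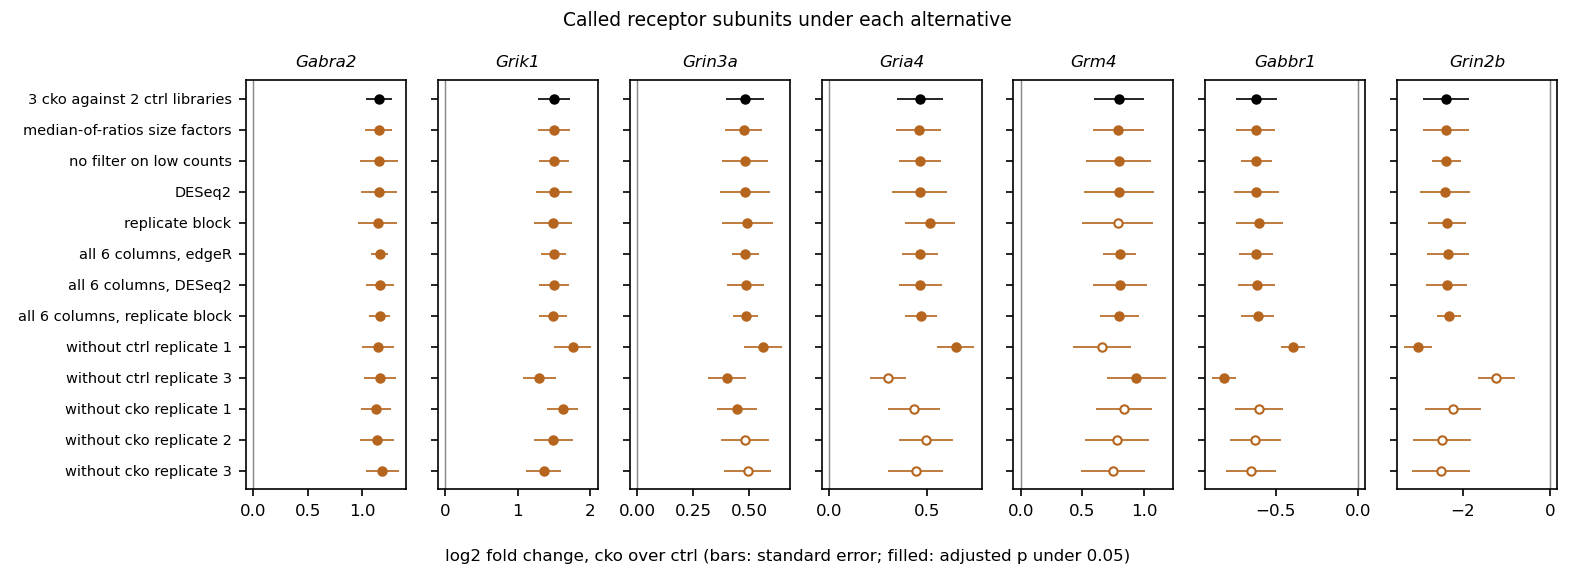
Log2 fold change (cko over ctrl, with standard error) of 7 called receptor genes in the comparison of 3 cko and 2 ctrl libraries (black) and under 12 alternatives (brown), filled where the adjusted p was under 0.05. Gabra2 and Grik1 are filled throughout, and most points of the other genes are open where a cko library was left out.

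Summed per kb of merged exons, AMPA transcripts were the most abundant family in every library. They were at 71.7 and 62.6 normalized CPM per kb in ctrl and 75.8, 70.3 and 76.8 in cko libraries, and kainate transcripts at 59.5 and 60.04 against 54.1, 56.4 and 56.1. The AMPA sums overlapped between genotypes, and the kainate sums did not. GABA-A transcripts were at 21.3 and 18.5 in ctrl and 26.6, 25.6 and 25.7 in cko libraries, and NMDA transcripts, of which Grin3a made up 71.7% ± 10.2 (SD, n = 2) in ctrl and 84.0% ± 3.0 (SD, n = 3) in cko, at 8.27 and 8.96 against 10.3, 10.1 and 10.3. Both sums were higher in each cko library. GABA-B transcripts were at 64.7 and 48.7 in ctrl and 37.5, 35.9 and 38.0 in cko libraries, all lower than in ctrl. The metabotropic sum was at 37.3 and 51.1 against 44.1, 40.4 and 39.2, which overlapped. No test was made on a sum.

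**Figure D5:**
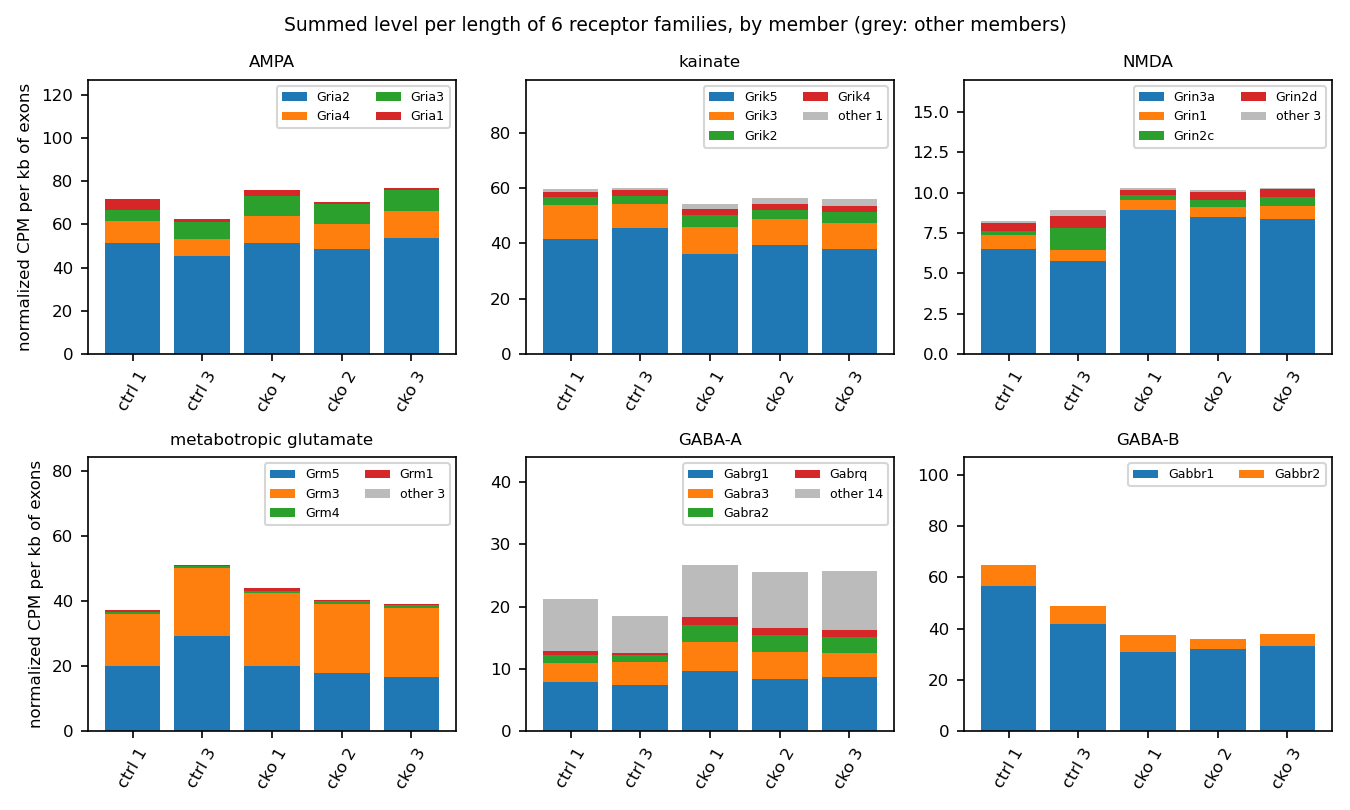
Summed normalized CPM per kb of merged exons of 6 receptor families in the 2 ctrl and 3 cko libraries, stacked by member. Gria2, Grik5, Grin3a and Gabbr1 fill most of their family's bar in every library, and the GABA-B bars are lower in the cko libraries.

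Within GABA-A, Gabrg1 made up 38.6% ± 2.4 (SD, n = 2) of the level per kb in ctrl and 34.4% ± 1.8 (SD, n = 3) in cko libraries, and Gabra3 17.5% ± 3.5 and 16.5% ± 1.0. Gabra2 went from 6.01% ± 0.60 to 10.2% ± 0.40. The most abundant alpha and gamma transcripts were therefore Gabra3 and Gabrg1 in both genotypes. Among the 11 genes with too few counts to test, Gabrd, which codes for the extrasynaptic delta subunit, had at most 4 counts in a library. Gabra6, known from cerebellar granule cells, had 0 counts in all 5 libraries, where 3 counts correspond to 0.129 to 0.168 CPM. Gabrr1, Gabrp, Grm2, Grm7, Grm8, Grin3b and Gabra5 had at most 1, 2, 2, 3, 3, 5 and 5 counts. Grin3b shares 32.1% of its exon bases with Tmem259 on the opposite strand, and Grm2 shares 9.60% with antisense Gm28111. How such shared reads were counted is not known. Floors cover counting error only.

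The genes that work with these receptors were taken from 6 lists of 97 measured genes, of which 81 were tested, 12 rose and 10 fell. Beside these counts and those of each list, 7.86% of all 16710 tested genes rose and 8.57% fell. Of 18 tested auxiliary subunits of AMPA and kainate receptors, 3 rose and 0 fell in edgeR, beside a list median of −0.14. DESeq2 also called 0 lower, and 4 lower genes had an unadjusted p under 0.05 in edgeR. Neto1, an auxiliary subunit of kainate receptors, was at 78.3 and 75.1 CPM in ctrl and 150, 171 and 166 CPM in cko libraries (log2 fold change 1.08 ± 0.09, SE; adjusted p = 0.00106). Its paralog Neto2 was at 86.6 and 101 against 125, 145 and 148 CPM (0.57 ± 0.11, adjusted p = 0.0144). Both Neto genes rose, as Grik1 did, and neither overlapped between genotypes. Cacng4, which codes for an AMPA receptor auxiliary subunit, was at 80.7 and 95.4 against 154, 181 and 175 CPM (0.95 ± 0.11, adjusted p = 0.00263).

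Of 28 tested scaffold and organizer genes of glutamatergic synapses, 3 rose and 2 fell (median 0.01). Dlgap3, Lrrtm1 and Dlg3 rose, with log2 fold changes of 1.05, 0.71 and 0.32. Cbln2, a secreted ligand of delta receptors, fell from 12.1 and 8.48 CPM to 1.51, 1.11 and 1.01 (log2 fold change −3.10 ± 0.26, SE; adjusted p = 0.00109), and Pick1, which binds AMPA receptor subunits, fell with −0.41. Of 13 tested GABAergic scaffold genes, Slitrk3, Lhfpl4 and Gabarap rose, with log2 fold changes of 0.71, 0.46 and 0.35, and 0 fell in edgeR (2 lower at an unadjusted p under 0.05, and 1 in DESeq2; median 0.15). Gphn, which codes for the scaffold gephyrin, was not called, at 74.5 and 78.4 against 71.7, 82.3 and 78.9 CPM.

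Genes that take up and convert the transmitters were called in both directions. Of 11 tested genes of glutamate synthesis and transport, 5 fell and 2 rose (median −0.40), and of 8 for GABA, 2 fell and 1 rose (median −0.30). The glutamate transporters Slc1a3, Slc1a2 and Slc1a1 fell with log2 fold changes of −0.79, −1.03 and −1.20, and Glul and Slc7a11, added after their values were seen, with −0.94 and −1.46. Slc1a2 and Slc1a3 are also on the astrocyte marker list. Slc6a11, a GABA transporter known from astrocytes, was at 831 and 1222 CPM in ctrl and 401, 251 and 241 CPM in cko libraries (log2 fold change −1.79 ± 0.25, SE; adjusted p = 0.00493). Aldh9a1 also fell (−0.83), while the amino acid transporters Slc38a1 and Slc38a2 rose (0.62 and 0.59). Gad1, which makes GABA, was at 21.8 and 32.2 against 46.1, 38.9 and 45.3 CPM and rose (0.69 ± 0.17, adjusted p = 0.0342). The vesicular transporters that define glutamatergic and GABAergic neurons were at or near 0, with at most 0.107 CPM for Slc17a6, 0.320 for Slc17a7 and 0.213 for Slc32a1. Of 4 tested glycine receptor and chloride transporter genes, Slc6a9, a glycine transporter, fell from 133 and 205 CPM to 50.6, 37.3 and 38.9 (log2 fold change −1.998 ± 0.20; adjusted p = 0.00192), and the other 3 were not called.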

How the data were processed

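The authors filtered reads with NGSQC (v2.3.3) after FastQC (v0.11.5), used HISAT2 to align them to mm10, and deposited the unnormalized counts of each gene. The labels name GRCm39 as the build, and the counting tool, annotation and use of strand are not given in the sources used here. Of the 6 columns, 5 were used. Names, positions and lengths came from GENCODE M21 on GRCm38 (31836 of 32493 IDs matched), and promoter sequences from RefSeq. Grm6 and Gabrr3 have no row used here, and results of some genes are not reported here.

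Counts were filtered by edgeR 4.0.16 (R 4.3.3), normalized by TMM and tested by its quasi-likelihood test. Standard errors (SE) of edgeR values were derived from that test, as the size of the log2 fold change over the square root of the F statistic. Those of DESeq2 are the ones it reports. CPM values are TMM-normalized, and sums per kb add them over members. Every receptor gene was accounted for, with full values for those called and the highest per family, and lists named the 3 called genes with the smallest p in each direction. Other genes with values were added after their values were seen. The members and lists were chosen with earlier results of these data known. Alternatives were median-of-ratios factors, no filter, DESeq2 1.42.0, the replicate number as a block, all 6 columns, leaving out each library and another gene length. In simulated counts of 16710 genes with 200 changed by 1.5 (log2), edgeR recovered 92.5%, and 7.04% of its 199 calls were false.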

Additional observations from a re-analysis of the deposited data

How the results depend on the processing

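Counts of called receptor genes depended on the fit. Beside 6 higher and 2 lower, there were 10 and 6 without a filter on low counts, 12 and 4 with all 6 columns in edgeR, 12 and 5 with all 6 columns in DESeq2, and 11 and 6 with all 6 columns and the replicate number as a block. Called genes of both directions made up 16.4% of the genes in the comparison itself and 13.4% without a filter. They made up 34.7%, 16.7% and 32.8% in the fits of all 6 columns, in that order. The 16.7% is of 30524 genes, including any to which DESeq2 gave no adjusted p. It stands beside 9.98% in DESeq2 with the 5 libraries. The columns beyond the 5 libraries hold no counts of their own. Leaving out each library gave 2 to 7 higher and 0 to 5 lower, with 4.50% to 21.7% of all tested genes called. With a log2 size over 0.9 and an unadjusted p under 0.01 required, 1 lower gene became 3 without a filter, 2 with all 6 columns and the block, and 0 to 2 without a library. The lower related genes went from 10 to 21 without a filter, 21 (edgeR) and 20 (DESeq2) with all 6 columns and 26 with the block, and to 5 to 22 without a library, and the higher ones from 12 to between 5 and 16 without a library. Shares of all tested genes under the rule of 0.9 and 0.01 were not counted in the alternatives, and the causes were not tested. Without a library, the log2 fold change of Grid1 ranged from −0.10 to 0.21 and that of Gria2 from −0.0033 to 0.17, the low ends without ctrl replicates 1 and 3, so neither kept its direction.

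With the replicate number as a block in the 5 libraries, 7 receptor genes were higher and 2 lower, beside 11.9% of all tested genes called in both directions. Of the 8 calls, 6 remained, and that of Grm4 was lost. Deviations of same-numbered libraries correlated at 0.2 and 0.0568, and no source says that the numbers mark litters. Median-of-ratios factors kept all 8 calls, beside 16.3% of all tested genes. DESeq2 called 10, with the same 8 among them, beside 9.98% of the 30524 genes in that fit. Of the 26 tested genes not called, 16 were called in at least 1 of the 12 alternatives, which limits what the missing calls show. Among the 16, Gabra3, Gabrb2, Gabrg1 and Grin2d were called only with all 6 columns, where the averaged ctrl column entered as a library. The same count over all tested genes was not made. Family sums kept their direction with the other gene length. The search for miR-151-5p seed matches was not run. With 2 ctrl libraries, the spread within ctrl rests on 1 difference: 8 of 34 tested genes differed over 2-fold between them.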
